A study of Mus musculus with 6 samples.

Results

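The vascular endothelial growth factor (VEGF) system of the mandibular arch is described here through 7 genes: the receptors Flt1, Kdr and Flt4 and the ligands Vegfa, Vegfb, Vegfc and Pgf. The genes were chosen by name, and each was read from the probe set whose annotation gives that symbol alone; all 7 were found, among 19938 genes tested, and each had 1 such probe set. RNA came from dissected mandibular arches, the lower-jaw part of the first pharyngeal arch, of C57BL/6 embryos at embryonic day 9.5 and was read on 6 arrays of the Affymetrix Mouse Gene ST 1.0 type. On 3 arrays the embryos were Tbx1-/- (Tbx1 null) and on 3 they were Tbx1+/+ (wild type), with no further allele or treatment named in the labels. Arches of 3 embryos of a genotype were pooled, and whether each array carried its own pool is not stated, so the p-values below measure the spread between these arrays, which may be partly technical. The mean log2 level of 3 Y-linked genes was 9.58 and 9.28 on Tbx1 null replicates 1 and 2, against 5.73 on replicate 3. The Tbx1 null arrays therefore did not all carry the same pool. Whether replicates 1 and 2, or the wild-type arrays, shared a pool is not known. Values are log2 expression levels, on which a difference of 1 is a doubling, and changes are Tbx1 null minus wild type.

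VEGF ligands are secreted dimers that bind receptor tyrosine kinases on endothelial cells, the cells that line blood and lymph vessels. Kdr (VEGFR-2) carries the main signal for endothelial growth and migration, Flt1 (VEGFR-1) binds Vegfa tightly but signals weakly and also exists as a soluble trap, and Flt4 (VEGFR-3) binds Vegfc and serves lymphatic vessels and, in the early embryo, blood vessels as well. Vegfa binds Flt1 and Kdr, Vegfb and Pgf bind Flt1, and Vegfc acts through Flt4 and, once processed, Kdr. In mouse lymphatic endothelial cells, Flt4 is known as a gene that Tbx1 acts on directly, and lymphatic vessels fail to develop normally without Tbx1. At embryonic day 9.5 the arch holds arch arteries and a capillary bed, and lymphatic vessels have hardly begun to form.

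None of the 7 genes passed the threshold in Tbx1 null arches, and 6 of them had overlapping arrays. Pgf, placental growth factor, was 1.16-fold lower, with no overlap between the genotypes, but its limma adjusted p was 0.297. Of all genes tested, 15.4% had no overlap between the genotypes and 7.06% had none as lower, so 1 of 7 is near the background share. By comparison, Tbx1 itself was measured at 9.48, 9.39 and 9.63 on the Tbx1 null arrays, against 11.64, 11.36 and 11.31 on the wild-type arrays, a limma change of -1.94 with an adjusted p of 0.000684, which checks the labels. The sources used here do not place the Tbx1 probes relative to the null allele.

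The start-site regions of 3 genes are shown. Flt4 was taken as the receptor linked to Tbx1 and Pgf as the 1 of the 7 genes with separated genotypes. Vegfb was taken as the 1 gene whose window holds a T-box half-site. Each window runs from 250 bases before to 50 bases after a transcript start in RefSeq (GRCm38.p6), which gave a window for all 7 genes and 9 in all, since Vegfa and Pgf each had more than 1. Capitals mark the T-box half-site GGTGTG and the hypoxia response element cores ACGTG and GCGTG, searched on both strands; the reverse complement of ACGTG shares its CGT with ACGTG, so a CACGTG would count on both strands.
Flt4 (chr11:49609429-49609728, + strand): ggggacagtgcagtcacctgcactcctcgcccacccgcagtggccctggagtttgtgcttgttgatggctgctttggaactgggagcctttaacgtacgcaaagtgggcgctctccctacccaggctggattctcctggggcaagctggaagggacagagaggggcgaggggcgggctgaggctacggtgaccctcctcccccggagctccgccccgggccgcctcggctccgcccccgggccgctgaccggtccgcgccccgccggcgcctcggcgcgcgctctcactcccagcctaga
Vegfb (chr19:6987602-6987901, - strand): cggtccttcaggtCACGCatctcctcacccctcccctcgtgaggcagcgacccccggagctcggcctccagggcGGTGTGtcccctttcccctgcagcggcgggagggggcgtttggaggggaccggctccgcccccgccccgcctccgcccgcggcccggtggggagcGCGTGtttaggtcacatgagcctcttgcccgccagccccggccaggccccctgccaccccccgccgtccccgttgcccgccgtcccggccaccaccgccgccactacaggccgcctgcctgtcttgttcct
Pgf (chr12:85177264-85177563, - strand): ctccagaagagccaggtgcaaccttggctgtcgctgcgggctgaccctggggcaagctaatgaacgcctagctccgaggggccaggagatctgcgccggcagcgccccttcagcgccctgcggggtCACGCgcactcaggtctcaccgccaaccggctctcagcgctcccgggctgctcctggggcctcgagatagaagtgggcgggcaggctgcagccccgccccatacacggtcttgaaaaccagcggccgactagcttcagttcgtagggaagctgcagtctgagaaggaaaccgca
The Flt4 window held neither motif. In Vegfb GGTGTG began 176 bases before the start, and it was absent from the other 8 windows, against 19.0% of 32851 windows of this length that hold it. A hypoxia core stood in 5 of the 9 windows, 1 each of Flt1, Kdr, Vegfa, Vegfb and Pgf, against 43.8% of all windows. For Vegfa it was the window of the more downstream start (chr17:46025114-46025413, - strand). The window of the upstream Vegfa start (chr17:46032328-46032627) held none. These matches describe letters in short windows and were not set against any binding data.

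Of the receptors, Flt4 (probe set 10375578, Entrez gene 14257) was at 9.33, 9.29 and 9.62 on the Tbx1 null arrays, against 9.70, 9.39 and 9.47 on the wild-type arrays. The highest Flt4 array was wild type replicate 1 and the next was Tbx1 null replicate 3, so the genotypes overlapped. The means were 9.41 ± 0.18 in Tbx1 null and 9.52 ± 0.16 in wild type (SD, n = 3 each), a change of -0.11 (SE 0.11) with a limma adjusted p of 0.833. The 95% confidence interval, -0.36 to 0.15, ran from 1.28-fold lower to 1.11-fold higher in Tbx1 null, so a decrease beyond 1.28-fold lay outside it. Flt4 varied between arrays of a genotype more than most genes: its pooled SD of 0.172 lay at percentile 95.8 of all genes tested. The size of its change depended on single arrays, at -0.21 without Tbx1 null replicate 3 (limma adjusted p = 0.692) and -0.01 without wild type replicate 1.

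Kdr (probe set 10530692, Entrez gene 16542) was at 10.24, 10.31 and 10.47 in Tbx1 null, against 10.41, 10.32 and 10.43 in wild type. All 3 wild-type values lay inside the Tbx1 null range. The change was -0.04 (SE 0.07, limma adjusted p = 0.908). With all 6 arrays its interval of -0.20 to 0.12 ran from 1.15-fold lower to 1.08-fold higher expression. Without Tbx1 null replicate 3 the Kdr change was -0.105 (SE 0.056). Flt1 (probe set 10535807, Entrez gene 14254) was at 9.72, 9.74 and 9.89 in Tbx1 null, against 9.86, 9.85 and 9.75 in wild type. Here too the highest array was Tbx1 null replicate 3, and the other Tbx1 null arrays were the lowest of the 6. The Flt1 change was -0.04 (SE 0.06, limma adjusted p = 0.911), with an interval of -0.18 to 0.11. The array probe sets are named for whole genes, so membrane-bound and soluble forms of Flt1 were not told apart.

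Among the ligands, Vegfa, the main growth signal for Kdr-bearing endothelium (probe set 10451198, Entrez gene 22339), was at 10.65, 10.79 and 10.74 in Tbx1 null, against 10.61, 10.75 and 10.79 in wild type. The ranges overlapped almost wholly, with a change of 0.01 (SE 0.06, interval -0.14 to 0.16, limma adjusted p = 0.979). This was the smallest change of the 7 genes, and it lay at percentile 11 of all genes tested by size. Vegfb, a Flt1 ligand with little growth activity on vessels (probe set 10465559, Entrez gene 22340), was at 11.61, 11.55 and 11.56 in Tbx1 null, against 11.52, 11.56 and 11.55 in wild type. It was the steadiest of the 7, with a pooled SD of 0.0257 at percentile 5.24 of all genes tested. Its change of 0.03 had the narrowest interval of the set, -0.07 to 0.12 (limma adjusted p = 0.902).

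Vegfc, the ligand of Flt4 and a requirement for lymphatic sprouting (probe set 10571788, Entrez gene 22341), was at 8.85, 8.71 and 8.93 in Tbx1 null, against 8.84, 8.71 and 8.81 in wild type. The lowest array of each genotype was replicate 2, and the ranges overlapped throughout. The change was 0.04 (SE 0.07, interval -0.11 to 0.20, limma adjusted p = 0.898). This was within the spread between arrays of a genotype.

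Pgf, a Flt1-specific ligand best known from placenta and from vessel growth in disease (probe set 10401607, Entrez gene 18654), was at 9.72, 9.60 and 9.62 in Tbx1 null, against 9.82, 9.95 and 9.80 in wild type. Every Tbx1 null array lay below every wild-type array, with a gap of less than 0.1 between the nearest pair. The means were 9.65 ± 0.07 in Tbx1 null and 9.86 ± 0.08 in wild type (SD, n = 3 each), a change of -0.21 (SE 0.06, interval -0.35 to -0.07). The unadjusted limma p was 0.0076 and the adjusted p 0.297, so Pgf did not pass. An exact two-sided permutation test over the 20 splits of the arrays gave p = 0.1, the smallest this design allows. With any 1 array left out the change stayed between -0.25 and -0.16, and the unadjusted limma p between 0.00657 and 0.0328.

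**Figure D1:**
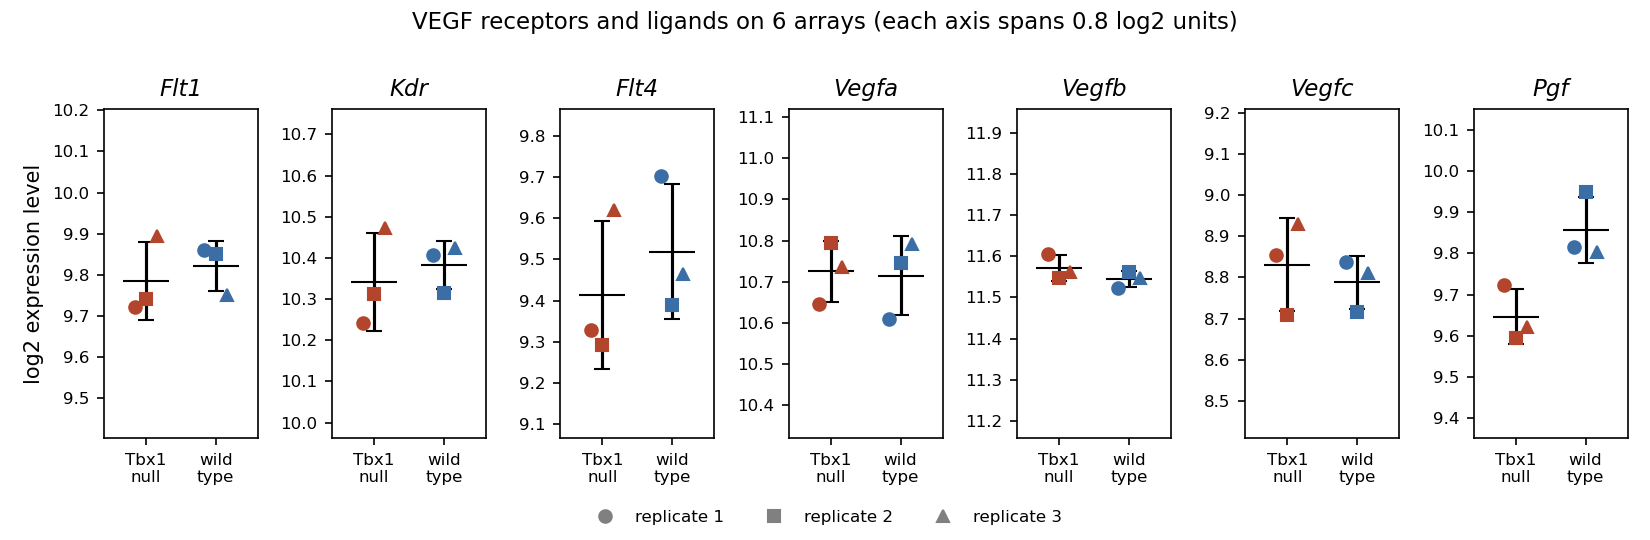
Log2 expression level (vertical axes, each spanning 0.8 log2 units around the gene's mean) of the 7 VEGF genes on the 3 Tbx1 null arrays (left in each panel) and the 3 wild-type arrays (right); symbols give the replicate number, long ticks the mean and bars 1 SD. The genotypes overlap in 6 panels, and in Pgf the Tbx1 null arrays (9.60 to 9.72) all lie below the wild-type arrays (9.80 to 9.95).

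As a count, 0 of 7 genes passed an adjusted p of 0.05, which 0.16% of all genes did (32 of 19938). At an unadjusted p under 0.05 there was 1 of 7, lower in Tbx1 null, where 9.44% of all genes met that rule and 3.94% met it as lower. Without overlap between the genotypes there was also 1 of 7, against 15.4% of all genes and 7.06% as lower. Numbers this small, in 7 genes, are near these background shares. The median change over all genes tested was -0.01. The smallest change that passed for any gene was 0.365 in size. The intervals of the 7 genes lay within that distance of 0 on both sides, although that of Flt4 came close to it. This value is not a detection limit, since the change a gene needs depends on its spread. Some larger changes did not pass, such as that of Etv2 at -0.64 (limma adjusted p = 0.400).

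**Figure D2:**
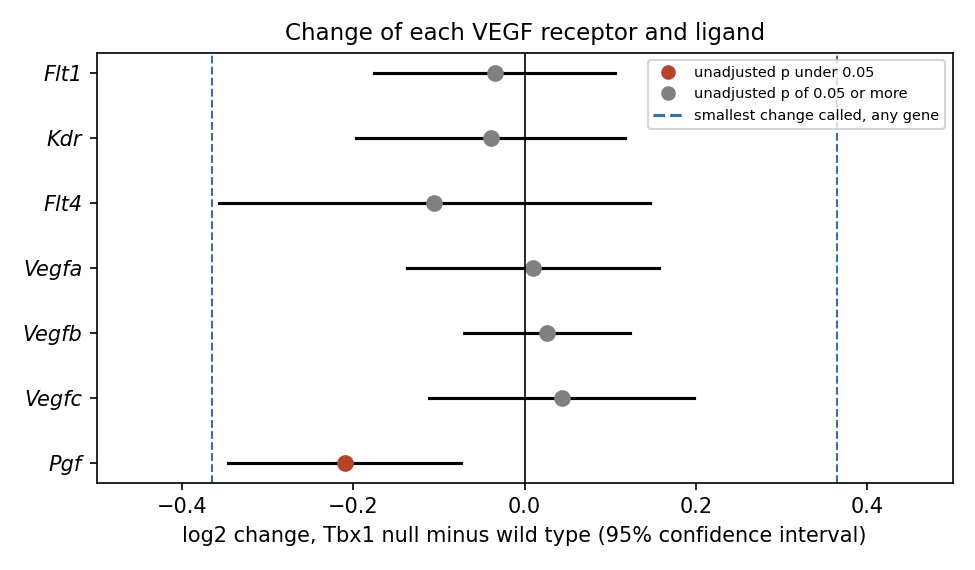
Log2 change, Tbx1 null minus wild type (horizontal axis), for each VEGF gene with its 95% confidence interval from limma; dashed lines mark plus and minus 0.365, the smallest change called for any gene. The interval of Pgf (-0.35 to -0.07) excludes 0 before adjustment, the other 6 include it, and that of Flt4 (-0.36 to 0.15) is the widest.

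Because the receptors are made mainly by endothelial cells, their levels were set beside 24 other endothelial genes that share no member with them. In whole-tissue RNA, fewer endothelial cells and less receptor RNA per cell cannot be told apart. The mean of these 24 genes, relative to its average over the 6 arrays, was -0.07, -0.02 and 0.09 on the Tbx1 null arrays, against -0.02, -0.01 and 0.03 on the wild-type arrays. Tbx1 null replicate 3 thus had the highest endothelial mean, and Flt1 and Kdr were at their highest on the same array, 0.09 and 0.11 above their own means. Flt4 was 0.15 above its mean there, but 0.24 above it on wild type replicate 1, where the endothelial mean was near 0. Among the Tbx1 null arrays, replicate 3 was highest for all 3 receptors; among the wild-type arrays Flt1 and Flt4 were highest on replicate 1 and Kdr on replicate 3. Tbx1 null replicate 3 also differed from the other 5 arrays in sex-linked transcripts, with a mean of 5.73 for 3 Y-linked genes, against 8.57 to 9.85 on the others, and the part of embryo sex in the receptor values was not tested.

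**Figure D3:**
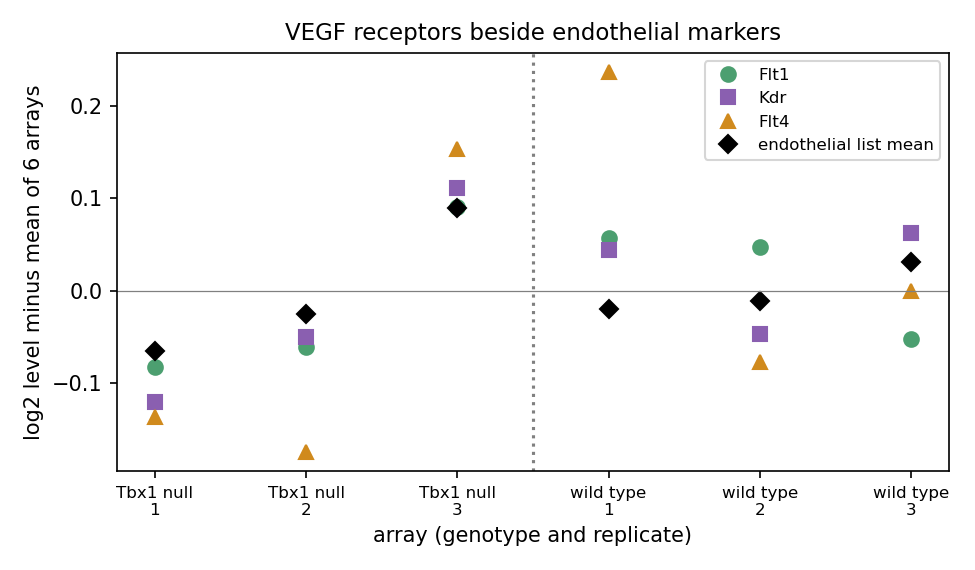
Log2 level minus the gene's mean over 6 arrays (vertical axis) of Flt1, Kdr and Flt4, beside the mean of 24 endothelial genes (black diamonds), on each array (horizontal axis, Tbx1 null left of the dotted line). On Tbx1 null replicate 3 the endothelial mean (0.09) and all 3 receptors lie above 0; on wild type replicate 1 Flt4 (0.24) lies far above the endothelial mean (-0.02).

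Subtracting each array's endothelial mean left the receptor changes where they were, at -0.04 for Flt1, -0.04 for Kdr and -0.11 for Flt4, since the endothelial mean hardly differed between genotypes. In Tbx1 null the SD after subtraction was smaller for all 3 receptors, at 0.02 for Flt1 (0.09 before), 0.04 for Kdr (0.12 before) and 0.11 for Flt4 (0.18 before). In wild type it was larger for Flt1, at 0.09 (0.06 before), and for Flt4, at 0.18 (0.16 before), and 0.05 for Kdr (0.06 before). Exact two-sided permutation tests on these subtracted values gave p = 0.5, 0.3 and 0.5 for Flt1, Kdr and Flt4. For Pgf the subtraction kept the change of -0.21 but brought the genotypes into overlap, with an exact permutation p of 0.2.

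Endothelial genes as a list showed small differences. Of the 24 measured, 0 passed the adjusted threshold. At an unadjusted p under 0.05 the list had 1 higher and 0 lower, against 5.5% and 3.94% of all genes. The median change was -0.01, as was that of all genes to 2 decimals. The list median was -0.06 without Tbx1 null replicate 3 and turned to 0.01 and 0.02 without Tbx1 null replicates 1 and 2. Their levels included Cdh5 (VE-cadherin, the endothelial adhesion molecule) at 11.57 to 11.79 in Tbx1 null and 11.69 to 11.70 in wild type, and Pecam1 at 9.35 to 9.39 in Tbx1 null and 9.14 to 9.45 in wild type. The gene of lowest p was the adhesion receptor gene Adgrl4 (change 0.29, limma adjusted p = 0.423), followed by the junction gene Esam (-0.12, adjusted p = 0.570) and the angiopoietin receptor gene Tek (-0.20, adjusted p = 0.645).

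Endothelial transcription factors were more varied, with 1 of 14 higher and 4 of 14 lower at an unadjusted p under 0.05, 0 past the adjusted threshold and a median of -0.04, which ran from -0.09 without wild type replicate 2 to -0.02 without Tbx1 null replicate 1. Background shares for that rule were 5.5% of all genes as higher and 3.94% as lower. Etv2, the ETS factor that starts the blood and endothelial lineages and acts on Kdr in mouse, was at 8.93, 8.92 and 9.20 in Tbx1 null, against 10.21, 9.30 and 9.46 in wild type. The genotypes did not overlap, and wild type replicate 1, the array with the highest Flt4, was far above the rest. The change was -0.64 (SE 0.22, limma adjusted p = 0.400), and -0.37 without wild type replicate 1. Gata2, a blood and endothelial GATA factor, had a change of 0.29 (adjusted p = 0.177), and Nr2f2, the venous identity factor, one of -0.23 (adjusted p = 0.239), each with no overlap between genotypes.

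Lymphatic genes, which bear on Flt4 most directly, had 0 of 8 past the adjusted threshold. At an unadjusted p under 0.05, 0 of them were higher and 2 of them lower, against 5.5% and 3.94% of all genes. Of the 8, 1 lay above 0, against 46.5% of all genes. The median was -0.10, or -0.11 to -0.07 with 1 array left out. The 2 lower genes were Nr2f2, which also stands on the transcription factor list, and Reln, whose change was -0.15 (limma adjusted p = 0.372). Prox1, the master factor of lymphatic identity, had a change of -0.01 (adjusted p = 0.990), and Lyve1, a hyaluronan receptor of lymphatic endothelium and macrophages, one of -0.10 (adjusted p = 0.751). Pdpn, a glycoprotein of lymphatic endothelium that many other embryonic cells also carry, had a change of 0.18 (adjusted p = 0.540). Which cells of the arch made the transcripts of these 8 genes was not tested.

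The remaining VEGF-binding and VEGF-C-processing genes had 4 of 5 changes above 0, where 46.5% of all genes lay above 0. Their median was 0.10 (0.06 without Tbx1 null replicate 3), and 0 passed the adjusted threshold. Vegfd, the other ligand of Flt4, was at 9.88, 9.63 and 9.62 in Tbx1 null, against 9.12, 9.37 and 9.53 in wild type. The genotypes did not overlap, though Tbx1 null replicate 3 lay less than 0.1 above wild type replicate 3. Its change was 0.37 (SE 0.11), 1.29-fold, with an unadjusted limma p of 0.0112 and an adjusted p of 0.340. Nrp1, the neuropilin that presents Vegfa to Kdr, had a change of 0.10 with no overlap (adjusted p = 0.610), while Nrp2, the neuropilin that pairs with Flt4, had one of -0.15 with overlap (adjusted p = 0.679). Ccbe1 and Adamts3, which together mature Vegfc, had changes of 0.15 and 0.07 (adjusted p = 0.546 and 0.862).

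Genes that endothelial cells switch on or off under VEGF went both ways. Of 17 measured, 4 were higher and 2 were lower at an unadjusted p under 0.05, against 5.5% and 3.94% of all genes. None passed the adjusted threshold. The median was 0.03, and it turned to -0.03 without Tbx1 null replicate 3 and to -0.01 without wild type replicate 1. Hlx, a homeobox gene, was at 9.56, 9.45 and 9.67 in Tbx1 null, against 10.19, 10.05 and 9.97 in wild type (change -0.51, limma adjusted p = 0.0651). Unc5b, a netrin receptor of tip cells, was at 11.09, 11.14 and 11.27 in Tbx1 null, against 10.84, 10.59 and 10.67 in wild type (change 0.46, adjusted p = 0.0845). Both separated the genotypes clearly without passing. Aplnr, the apelin receptor, had a change of 0.22 (adjusted p = 0.177).

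Downstream of the receptors, 0 of 24 signal transduction genes passed the adjusted threshold, with 1 higher and 2 others lower at an unadjusted p under 0.05 and a median of 0.01; the median was -0.01 when either wild type replicate 2 or Tbx1 null replicate 3 was left out. The lowest p belonged to the adaptor gene Sh2d2a (0.14), the calcineurin-driven factor gene Nfatc1 (-0.15) and the protein kinase C gene Prkca (-0.22), with limma adjusted p of 0.416, 0.456 and 0.485. Hypoxia factors and targets, of which the targets are the class that moves with Vegfa when oxygen falls, had 0 of 18 past the adjusted threshold. Their median was -0.04, or -0.01 with wild type replicate 1 left out and -0.07 with wild type replicate 2 left out. At an unadjusted p under 0.05, 0 were higher and 1 gene was lower. That gene was P4ha1, a collagen hydroxylase (-0.13, adjusted p = 0.456). Epas1, the hypoxia factor of endothelium, had a change of 0.14 and the kinase gene Pdk1 one of -0.11 (adjusted p = 0.562 and 0.662). For the counts of both lists, the background shares were 5.5% of all genes as higher and 3.94% as lower.

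**Figure D4:**
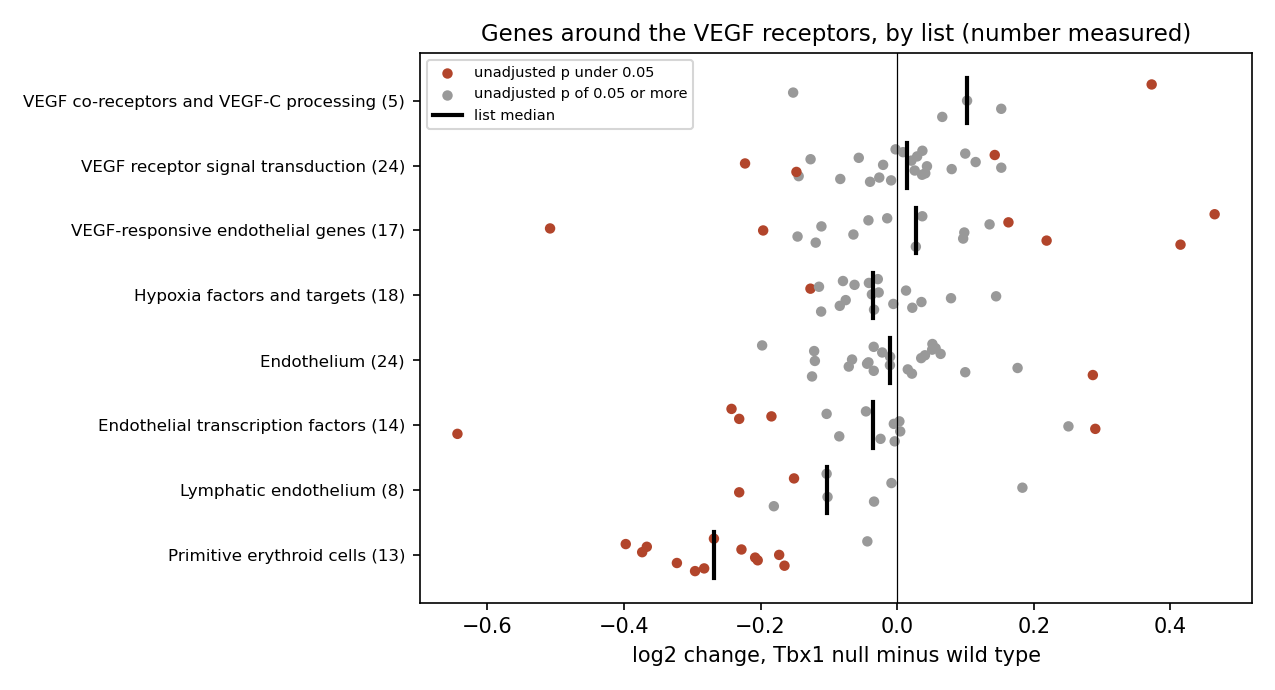
Log2 change, Tbx1 null minus wild type (horizontal axis), of each measured gene of 8 lists (rows, with the number measured; points are spread vertically for clarity), with list medians as black bars and genes at an unadjusted limma p under 0.05 in red. Points of the VEGF lists lie on both sides of 0, while the 13 primitive erythroid genes all lie below it (median -0.27).

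Blood cells travel in the vessels that carry these receptors, and their markers had lower values in Tbx1 null. Of 13 primitive erythroid genes measured, 0 passed the adjusted threshold. At an unadjusted p under 0.05, 0 were higher and 12 were lower, against 3.94% of all genes as lower. All 13 changes were below 0, with a median of -0.27, where 46.5% of all genes lay above 0. The list mean, relative to its average over the arrays, was -0.11, -0.10 and -0.17 on the Tbx1 null arrays, against 0.12, 0.10 and 0.17 on the wild-type arrays. The anion exchanger gene Slc4a1 had a change of -0.40, the erythroid factor gene Klf1 one of -0.37 and Gata1 one of -0.32 (limma adjusted p = 0.0577, 0.0651 and 0.124). The erythroid means did not overlap between genotypes, and the endothelial means did. The part of blood content in the values of Pgf was not tested.

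The pattern of each gene over the 6 arrays was compared with that of all others. Likeness was taken as the root-mean-square difference between log2 values centred on each gene's own mean, in log2 units, and is a description over 6 arrays that share one normalisation. Among the 7 VEGF genes, Flt1 and Kdr were each other's nearest (0.0634), and the one nearest to Flt4 was Kdr (0.0997), so each receptor lay nearest to another receptor. Of all other genes, the nearest to Flt4 were Rab11fip1 (0.0247), Arap3 (0.0297) and Tns2 (0.0327); to Kdr, Bcl10 (0.0150), She (0.0210) and Ninl (0.0214); and to Flt1, Aoc3 (0.00872), Shank3 (0.0112) and Atg16l2 (0.0144). Of these, She is on the endothelial list. Among the 1000 genes nearest to each receptor stood 8 of the 24 endothelial genes for Flt4, 7 for Kdr and 4 for Flt1. The same count was 2 for Vegfa, 2 for Vegfc, 0 for Vegfb and 0 for Pgf. These counts stand beside a share of 1000 in 19938 for all genes. The measure also depends on how much a gene varies, so a steady gene lies near other steady genes. The root-mean-square deviation from the gene's own mean was 0.0248 for Vegfb, 0.0671 for Flt1, 0.0791 for Kdr and 0.15 for Flt4. The distance of 0.0634 between Flt1 and Kdr was thus little below the deviation of Flt1 itself. The genes nearest to Pgf were Clec2g (0.0231), Mrm2 (0.0316) and Gamt (0.0338), and those nearest to Vegfa were Edf1 (0.0138), Wbp4 (0.0191) and Ubn1 (0.0195). For Vegfb they were Mbnl1, Stub1 and Plcl1 (0.00718 to 0.0103), and for Vegfc Wipf2, Patl1 and Agpat2 (0.0193 to 0.0212). With 19938 genes and 6 arrays close matches are numerous, and nothing about function follows from them.

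The arrays had medians of 7.98 to 8.04, and no 2 of them were copies of each other. Precision is set by the number of arrays, and a change had a median SE of 0.0579. Markers of the labelled tissue were present, with Dlx5, a jaw-patterning homeobox gene, at 12.83 to 13.01 in Tbx1 null and 12.81 to 12.92 in wild type. Of 17 mandibular mesenchyme genes measured 2 rose, Meis1 and Msx2 (limma adjusted p = 0.0374 and 0.0422), and 0 fell. Not all markers were as even as Dlx5. The mean of the 17, relative to its average over the arrays, was 0.14, 0.08 and 0.04 in Tbx1 null. In wild type it was -0.17, -0.06 and -0.03, lowest on replicate 1, the array with the highest Flt4. Barx1 was at 11.90 on that array, against 12.34 to 12.77 on the others. The part of this difference in the Flt4 values was not tested. Levels of different genes come from different probes and are not compared here.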

How the data were processed

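Gene expression was measured on 6 arrays, 3 Tbx1 null and 3 wild type, grouped by the sample titles. The deposited log2 levels came, per the submitters' processing notes, from RMA, which the authors ran in Expression Console 1.1 by Affymetrix; the sources used here give no summary level, library files or filters. RMA draws array distributions together, so a shift shared by most genes cannot be seen, and changes of dim probe sets tend to be understated. Control or background probes were not used here, so signal over background was not judged. The table held 0 columns of other samples.

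Of 35556 probe sets, 21789 had 1 gene symbol in the platform annotation, 1621 had several and 12146 were unnamed there. A RefSeq gene table (GRCm38.p6) matched 21698 of those with 1 symbol by Entrez ID and changed 0 symbols. For each gene the probe set of highest mean was used, which left 19938 genes. They were fitted with limma 3.58.1 in R 4.3.3 (lmFit, eBayes, two-sided, no covariate), with Benjamini-Hochberg adjustment over all genes and a threshold of 0.05; limma gives every p in the text unless an exact permutation test is named. No gene list was tested as a set.

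The 7 VEGF genes, the 12 gene lists and the rules were chosen with earlier results of these data known. Named genes were the 7, Tbx1, up to 3 genes of lowest p per list and those past the threshold, and the 3 genes nearest to each of the 7. Cdh5, Pecam1, Prox1, Lyve1, Pdpn, Nrp1, Nrp2, Ccbe1, Adamts3, Dlx5, Acta2, Pdgfrb and Notch3 are given for their roles or to complete a list. Barx1, Kcnj8, Myh11, Cspg4 and Anpep are given to show how other genes of their lists differed. The lists held 185 entries, some of which are not analysed here. The fit was tested on simulated data of 19938 genes, some altered by known folds. Of 50 genes altered at each fold, 29 were recovered at 1.25-fold, 48 at 1.5-fold, 50 at 2-fold and 49 at 4-fold. Of 189 calls, 13 were false. The noise was drawn from the fitted model, independently for each gene, so effects that genes share on an array were not covered.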

Additional observations from a re-analysis of the deposited data

How the results depend on the processing

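No VEGF gene passed the adjusted threshold under any of the settings run, and the count at an unadjusted limma p under 0.05 was 1 of 7, Pgf, in each fit. Over those settings the Pgf change ran from -0.26 to -0.16 and its lowest adjusted p was 0.0557, with array weights. Flt4 kept its sign at -0.21 to -0.01 (lowest adjusted p 0.603), as did Flt1 at -0.09 to -0.0027. Signs of changes near 0 turned under some settings. With 1 array left out, Kdr ran from -0.105 to 0.0106 (above 0 without Tbx1 null replicate 1), Vegfa from -0.0433 to 0.0494 (below 0 without Tbx1 null replicate 2, at -0.0241, or wild type replicate 1) and Vegfc from -0.00635 to 0.104 (below 0 without Tbx1 null replicate 3). Vegfa was also at -0.0166 with centring on the array median and at -0.00951 with array weights, Vegfb at -0.00018 with centring, and Vegfc at -0.00431 after quantile normalisation again. The cause was not tested. The count of all genes past the threshold was 3 to 20 with 1 array left out, 96 with an intensity trend and robust estimation, 334 with array weights, 4 over every probe set (where more features are tested), 73 with the endothelial mean subtracted (an alternative chosen after seeing the data) and 6 with a replicate block, against 32. Deviations of same-numbered arrays correlated at -0.045, 0.26 and 0.149. Differently numbered arrays were not set beside them, so whether the replicate numbers paired the arrays cannot be told. The replicate block left 1 VEGF gene at an unadjusted limma p under 0.05. Signal over background was not judged, so the part of dim probe sets is not known.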

Other observations

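Mural cells wrap the vessels that VEGF builds, and a list of pericyte and smooth muscle genes had mostly positive changes in Tbx1 null arches. Of 12 pericyte and smooth muscle genes 0 passed the adjusted limma threshold. At an unadjusted p under 0.05, 5 were higher and 1 was lower, against 5.5% and 3.94% of all genes. Of the 12, 10 lay above 0, against 46.5% of all genes. The median change was 0.14 and ran from 0.11 to 0.19 with 1 array left out. Acta2, smooth muscle actin, was at 11.23, 11.18 and 11.57 in Tbx1 null, against 10.65, 10.10 and 9.95 in wild type, 2.13-fold higher (adjusted p = 0.0865). The other smooth muscle genes of lowest p were Cnn1, with a change of 0.44, and Tagln, with one of 0.47 (adjusted p = 0.236 and 0.399). The remaining genes of the list that were higher at the unadjusted rule were Pdgfrb and Notch3, each with a change of 0.14 (adjusted p = 0.409 and 0.485). Some other genes of the list did not follow. Kcnj8 was the 1 lower gene, with no overlap (-0.13, adjusted p = 0.492), and Myh11, Cspg4 and Anpep had changes of 0.03, 0.05 and -0.02. Which cells carried these changes was not tested.

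Of 13 macrophage and myeloid genes, 0 passed the adjusted limma threshold, 1 was higher and 1 other was lower at an unadjusted p under 0.05, and the median was -0.03, or 0.01 without Tbx1 null replicate 3. Those of lowest p were Spi1 (-0.18), Cd68 (0.25) and Csf1r (-0.13), with adjusted p of 0.261, 0.508 and 0.628. Of 12 epithelial genes, 0 passed, 4 were higher and 0 were lower at an unadjusted p under 0.05, and the median was 0.13, or 0.05 without wild type replicate 2. Pitx1 had a change of 0.33, Trp63 one of 0.23 and Krt8 one of 0.24 (adjusted p = 0.0962, 0.172 and 0.335). Of the 17 mesenchyme genes, 8 were higher and 1 was lower at an unadjusted p under 0.05. Their median was 0.09, or 0.16 and 0.15 with wild type replicates 2 and 3 left out in turn. The gene of next lowest p after Meis1 and Msx2 was Prrx2 (0.23, adjusted p = 0.116). For the myeloid, epithelial and mesenchyme counts, the background shares were 5.5% of all genes as higher and 3.94% as lower.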
